A study of Mus musculus with 74 samples.

Results

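The 10 genes described here encode ligands and receptors of the transforming growth factor beta (TGF-beta) and bone morphogenetic protein (BMP) pathways. They are the ligands Tgfb1, Tgfb2, Tgfb3 and Bmp4, the receptors Tgfbr1, Tgfbr2, Tgfbr3, Bmpr2 and Acvrl1, and Bmp1, which carries a BMP name but is a protease. They were picked by gene symbol from 38840 different gene identifiers that carried a mean in any of 5 tables. The tables use identifiers of different annotations, so a gene can count more than once, and the largest table had 19320 genes with means. All 10 had a mean in 4 of these tables, and 9 had one in the Her2 table, where Bmp4 was not listed.

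In both pathways a secreted dimeric ligand brings together type I and type II receptor kinases on the cell surface. The type I receptor then phosphorylates receptor-regulated SMAD proteins, which enter the nucleus with Smad4 and alter transcription. TGF-beta is secreted in a latent complex bound to the matrix and restrains the growth of many epithelia while promoting matrix production and epithelial-mesenchymal transition. BMPs act through Smad1, Smad5 and Smad9 and are held in check by secreted antagonists. In the adult lung, BMP signaling takes part in vascular maintenance, and Acvrl1 (ALK1) and Bmpr2 are known for their roles in endothelial cells.

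Bulk RNA-seq, which counts the transcripts of all cells in a piece of tissue together, had been done on primary mammary tumors (PTs) and lung metastases (Lung mets) of female mice. Her2 mice carry MMTV-Her2, the neu oncogene under the MMTV promoter, and C3Tag mice carry C3TAg, SV40 T antigen under the C3(1) promoter, both on the FVB background. PyMT-F1 mice carry MMTV-PyMT from an FVB father and the genome of a BALB, SEA/Gn or AKRJ mother. Each group had 6 samples apart from 7 per tissue in C3Tag, and a Myc model (MMTV-Myc) completed the 74 samples, for which no mean was analysed here. All tumor-bearing animals carry an oncogene, so no comparison with normal mammary gland or normal lung was made. A PT sample pooled the primary tumors of one mouse, and a Lung met sample was a whole metastasis with whatever lung it held. In Her2 and C3Tag, tumors of animals with single lesions were removed by surgery and the mice aged on, whereas PyMT-F1 mice kept theirs until endpoint. Where a tumor was removed this way, PT and Lung met also differ in age. The titles and the genotype labels of many PyMT-F1 samples name different strains, and for some of them the source label and the tissue label name different tissues. The titles, which match the tissue label, were followed for both, and which samples entered a deposited mean is not given in the sources used here. One table, deposited under the name AKR, could not be tied to a strain. Where a comparison was possible, its fold changes nearly all equal those the study gives for a cross to BL6, which has no sample in this series, so its values may not come from the samples described here. They are given last and counted apart from the 4 models Her2, C3Tag, BALB and SEAGN, except where a statement speaks of tables. Such statements include the rule by which genes were named and the search for genes most like Bmp4.

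Each value below is the authors' mean of normalized counts for a tissue, given as deposited. The values of single samples were not analysed here, so the spread between mice is unknown, no difference could be tested, and depth per sample is unknown. The measure of difference is the log2 ratio of the Lung met mean over the PT mean, where 0 is no difference and 1 is 2-fold higher in Lung met. A gene was counted as higher or lower when the means differed at least 2-fold, a rule of size without statistical meaning. Each table was normalized on its own, so levels were set side by side within a table only. To compare genes of different length, means were divided by the kilobases of annotated exon (mean per kb), and a percentile places that level among all genes of the same table with a length.

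The PT total of C3Tag requires a remark, because it touches every C3Tag level. The genes Gm22614 and Gm25890 held 38.3% and 5.55% of the summed C3Tag PT means, at 15645841 and 2270759, against 45.4 and 10.8 in Lung met. Across all genes the median log2 ratio was -0.00 in Her2, 0.01 in C3Tag, 0.03 in BALB, 0.02 in SEAGN and 0.01 in the table deposited under AKR, so the deposited scaling left the typical gene level in every table. If C3Tag tissues were instead scaled to the same total, every C3Tag log2 ratio would move up by 0.80, 30.3% of all C3Tag genes would be at least 2-fold higher in Lung met and 0.564% lower, and 8 of the 10 members would be higher in place of the 4 given next. Leaving Gm22614 and Gm25890 out of these totals brings the shift to -0.03.

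The 3 sequences that follow are the stretches just upstream of Bmp4, Tgfb2 and Tgfbr1. They are shown because these genes, with Acvrl1, were the members at least 2-fold higher in C3Tag Lung mets. They comprise 250 bases before the annotated transcript start, from RefSeq on GRCm38.p6, 5′ to 3′ on the strand of the gene. Of the 10 genes, 6 had an entry, and Acvrl1 was among the 4 that did not. Capitals mark the SMAD box, searched as GTCT or AGAC, which are the same letters read on opposite strands.

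Bmp4, chr14:46390670-46390919, minus strand: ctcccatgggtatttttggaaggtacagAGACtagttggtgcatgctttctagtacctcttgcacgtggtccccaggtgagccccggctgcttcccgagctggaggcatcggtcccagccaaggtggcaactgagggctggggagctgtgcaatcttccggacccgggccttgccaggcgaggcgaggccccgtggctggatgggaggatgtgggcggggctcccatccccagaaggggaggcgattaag

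Tgfb2, chr1:186705990-186706239, minus strand: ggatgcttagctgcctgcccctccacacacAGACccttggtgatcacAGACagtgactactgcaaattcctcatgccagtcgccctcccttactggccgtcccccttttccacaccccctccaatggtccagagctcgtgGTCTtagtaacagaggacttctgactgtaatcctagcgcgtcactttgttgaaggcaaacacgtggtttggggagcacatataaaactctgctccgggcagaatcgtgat

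Tgfbr1, chr4:47352972-47353221, plus strand: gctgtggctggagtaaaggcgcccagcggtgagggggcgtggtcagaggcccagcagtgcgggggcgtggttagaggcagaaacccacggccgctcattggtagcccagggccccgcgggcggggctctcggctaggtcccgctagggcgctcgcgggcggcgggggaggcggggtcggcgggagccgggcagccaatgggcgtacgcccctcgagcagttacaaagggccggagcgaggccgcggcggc

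The Bmp4 stretch held 1 SMAD box, the Tgfb2 stretch 3 and the Tgfbr1 stretch 0. These letters are common, since 82.9% of the 32851 promoters in the same collection held at least 1 and the median was 2.00. The stretches differed in base composition, with G and C making up 63.2% of the Bmp4, 53.6% of the Tgfb2 and 74.8% of the Tgfbr1 sequence, beside a median of 52.4% over all promoters. Among the other 3 genes with an entry, Tgfb1 was like Tgfbr1 at 75.2%, Bmpr2 stood at 64.0% and Tgfbr2 at 58.4%. A match of letters describes the sequence only, and no binding was measured.

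Lung mets and PTs differed most in Bmp4. In C3Tag, 4 of the 10 genes were at least 2-fold higher in Lung met, namely Bmp4, Acvrl1, Tgfb2 and Tgfbr1, where 7.42% of all 19320 genes were. In BALB 1 of 10 was higher, against 2.26% of 17270 genes, and in SEAGN 1 of 10, against 2.86% of 17351 genes, and in both that gene was Bmp4. In Her2 none of 9 was higher, against 2.38% of 18208 genes. The table deposited under AKR had 2 of 10 higher, Bmp4 and Acvrl1, against 7.31% of 17829 genes. No member was at least 2-fold lower in any table, where 1.43% of all genes were lower in Her2, 1.70% in C3Tag, 2.40% in BALB, 3.22% in SEAGN and 1.73% in the table deposited under AKR.

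The median log2 ratio of the members was 0.08 in Her2, 0.59 in C3Tag, 0.13 in BALB, 0.14 in SEAGN and 0.08 in the table deposited under AKR. Only in C3Tag did this median lie above the upper quartile of all genes of its table, which was 0.28. Log2 ratios above 0 were seen for 7 of 9 members in Her2, 9 of 10 in C3Tag, 7 of 10 in BALB, 8 of 10 in SEAGN and 6 of 10 in the table deposited under AKR, and scaling to equal totals changes the sign of 1 or 2 of these ratios in each table.

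**Figure D1:**
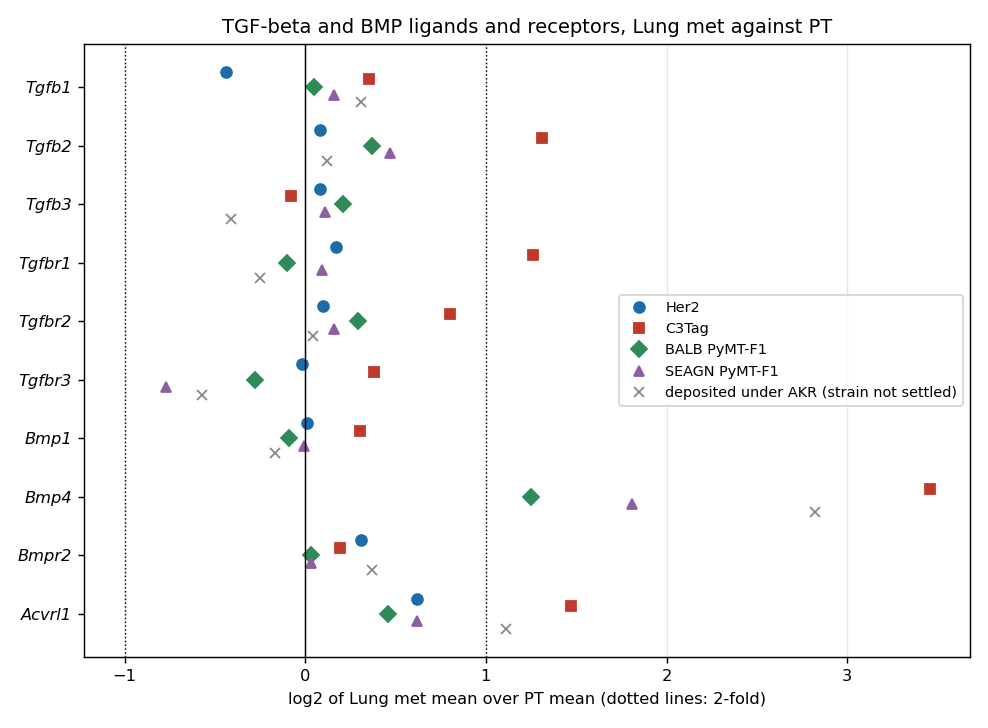
Log2 ratio of the authors' Lung met mean over PT mean (horizontal axis) for each of the 10 genes (rows), with one marker per table and dotted lines at 2-fold. Bmp4 lies to the right of the 2-fold line in all 4 tables that list it, from 1.25 to 3.46, and the C3Tag squares of Tgfb2, Tgfbr1 and Acvrl1 lie beyond it too.

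Bmp4, a BMP ligand that acts in lung branching and in distal lung epithelium, lies on chromosome 14 from 46383520 to 46390669 on the minus strand of GRCm38 and has 2248 bases of exon. Its C3Tag mean was 112 in PT and 1234 in Lung met, 11.0-fold higher (log2 ratio 3.46). The BALB mean was 15.0 in PT and 35.6 in Lung met, 2.37-fold higher (log2 ratio 1.25). The SEAGN mean was 15.9 in PT and 55.7 in Lung met, 3.51-fold higher (log2 ratio 1.81). All 3 models that list the gene thus had the higher mean in Lung met, and the table deposited under AKR did as well, with 31.7 in PT and 223 in Lung met, 7.04-fold higher (log2 ratio 2.82).

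Set against all genes of the same table, this ratio exceeded that of 99.5% of genes in C3Tag, 98.5% in BALB, 99.1% in SEAGN and 99.2% in the table deposited under AKR. The level it started from was low. Per kb, PT Bmp4 stood at the 35.7th percentile of genes in C3Tag (49.8 per kb), the 14.8th in BALB (6.68 per kb) and the 16.0th in SEAGN (7.06 per kb). In Lung met the C3Tag level reached the 88.5th percentile (549 per kb), which made Bmp4 the second of the 10 genes there after ranking ninth in PT. In BALB and SEAGN it reached only the 28.1st and 38.5th percentiles (15.8 and 24.8 per kb) and remained the lowest of the 10 genes in both tissues. Among the 4 tables the ratio thus passed 2-fold everywhere, while the level in Lung met ranged from low to high.

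Bmp4 overlaps Gm15217 and the antisense gene Gm15222 on the opposite strand. Gm15222 had means only in C3Tag, with 14.4 in PT and 84.6 in Lung met (log2 ratio 2.55). The labels name a stranded library kit, but whether the counting used the strand is not given in the sources used here, so reads of both genes may not have been told apart.

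Tgfb1, the ligand best known from immune and stromal cells, differed little between tissues and not in one direction. The Her2 mean was 407 in PT and 299 in Lung met (log2 ratio -0.44), and 5.52% of Her2 genes had a lower ratio. C3Tag went the other way, with 1394 in PT and 1781 in Lung met (log2 ratio 0.35). The PyMT-F1 means were closer to each other, at 416 and 430 in BALB (log2 ratio 0.05) and 424 and 474 in SEAGN (log2 ratio 0.16). The table deposited under AKR had 342 and 425 (log2 ratio 0.31).

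Tgfb2, a ligand with roles in heart and palate development, had the higher mean in Lung met in every table, but passed 2-fold only in C3Tag. Its C3Tag mean was 269 in PT and 668 in Lung met, 2.48-fold higher (log2 ratio 1.31), a larger ratio than that of 95.1% of genes. In BALB the means were 709 and 918 (log2 ratio 0.37) and in SEAGN 540 and 749 (log2 ratio 0.47). In Her2 they were 910 and 964 (log2 ratio 0.08), and in the table deposited under AKR 1313 and 1429 (log2 ratio 0.12). The C3Tag PT was where Tgfb2 was lowest of the 10 genes per kb, at 46.5, and at 115 it was still lowest in C3Tag Lung met.

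Tgfb3, the ligand that mammary epithelium makes in involution and that acts in palate fusion, was the most abundant of the 10 genes per kb in both tissues of every table but C3Tag. In Her2 its mean was 9701 in PT and 10242 in Lung met (log2 ratio 0.08), or 2867 and 3027 per kb, which is the 97.4th and 97.5th percentile. In BALB the means were 2068 and 2398 (log2 ratio 0.21) and in SEAGN 2719 and 2937 (log2 ratio 0.11), with per-kb levels at or above the 97.7th percentile. In C3Tag it was 1443 in PT and 1366 in Lung met (log2 ratio -0.08), at the 85.0th and 82.9th percentiles. The table deposited under AKR had 4901 in PT and 3683 in Lung met (log2 ratio -0.41). Across the 4 models its log2 ratio spanned only 0.29.

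The 3 TGF-beta ligands therefore stood in different proportions in the models. Per kb, Tgfb3 was 35.6 times Tgfb1 in Her2 PT and 51.0 times in Her2 Lung met, 7.41 and 8.32 times in BALB, and 9.56 and 9.23 times in SEAGN. In C3Tag it was 1.54 times Tgfb1 in PT and 1.14 times in Lung met. Tgfb2 was 0.168 times Tgfb1 per kb in C3Tag PT and 0.326 times in C3Tag Lung met, while in the other 3 models it was above Tgfb1 in both tissues, from 1.11 to 2.81 times. Tgfb3 overlaps Ttll5 on the opposite strand, whose means were 1018 in PT and 899 in Lung met of Her2, well below those of Tgfb3, but 1260 and 1120 in C3Tag, close to them.

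**Figure D2:**
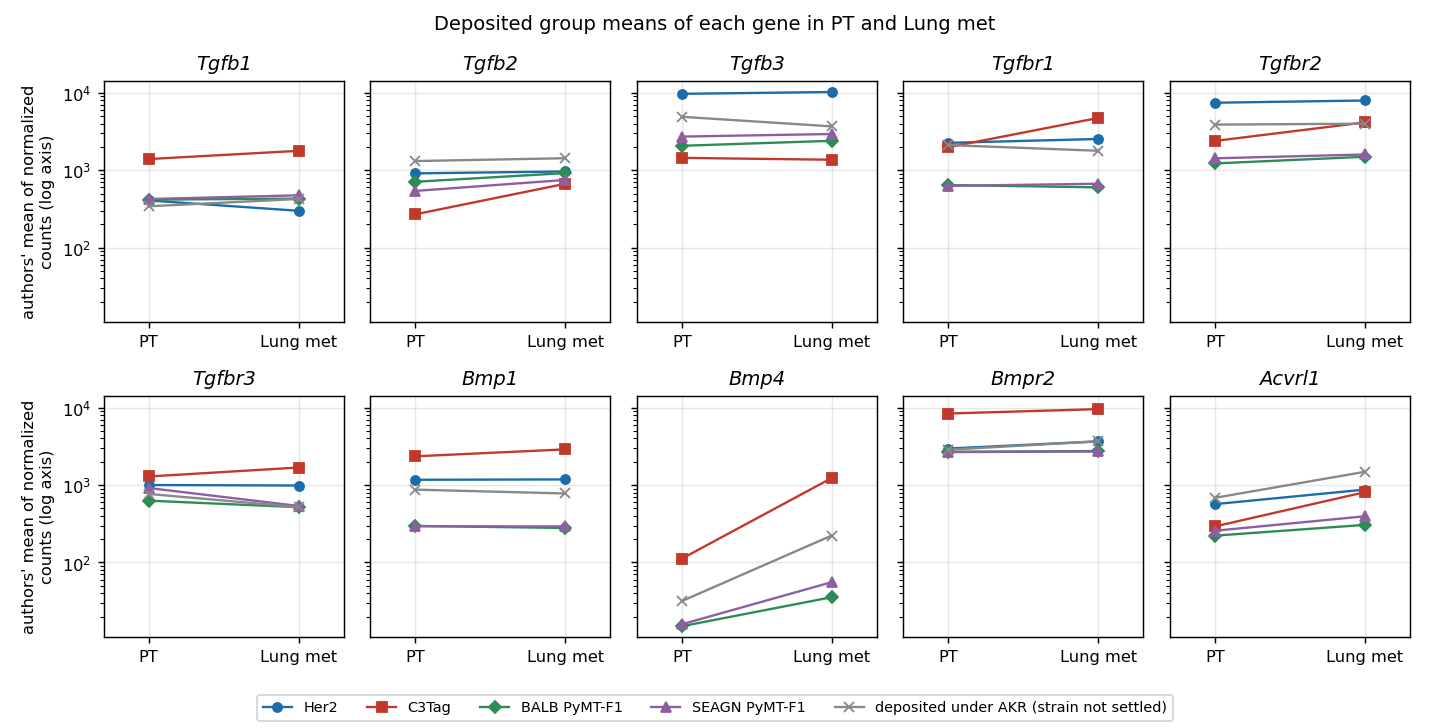
The authors' mean of normalized counts in PT and Lung met (log axis) for each gene, 1 panel per gene and 1 line per table, without error bars because values of single samples were not analysed here. The Bmp4 lines climb in all 4 tables that list it, from 112 to 1234 in C3Tag, whereas the lines of Tgfb3 and Bmpr2 are nearly level, and heights are comparable within a table only.

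Among the receptors, Tgfbr1 (ALK5), the type I receptor of TGF-beta, was higher in C3Tag Lung mets. Its C3Tag mean was 1983 in PT and 4736 in Lung met, 2.39-fold higher (log2 ratio 1.26), a larger ratio than that of 94.7% of genes. At 725 per kb this made it the highest of the 10 genes in C3Tag Lung met. The other models had ratios near 0, with 2257 and 2533 in Her2 (log2 ratio 0.17), 643 and 601 in BALB (log2 ratio -0.10), and 669 in Lung met of SEAGN, 1.06-fold the PT mean (log2 ratio 0.09). The table deposited under AKR had 2113 and 1783 (log2 ratio -0.25).

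Tgfbr2, the type II receptor that binds TGF-beta and recruits Tgfbr1, had the higher mean in Lung met in all 4 models and passed 2-fold in none. The C3Tag means were 2388 in PT and 4147 in Lung met, 1.74-fold higher (log2 ratio 0.80). The Her2 means were 7442 and 7955 (log2 ratio 0.10), the BALB means 1223 and 1492 (log2 ratio 0.29) and the SEAGN means 1425 and 1597 (log2 ratio 0.16). The table deposited under AKR had 3882 and 3990 (log2 ratio 0.04). In Her2, Tgfbr2 ranked behind only Tgfb3 per kb, and it was 2.63 times Tgfbr1 in PT and 2.51 times in Lung met. C3Tag was the model in which Tgfbr1 was above Tgfbr2 per kb, at 1.04 times in PT and 1.43 times in Lung met.

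Tgfbr3 (betaglycan), the co-receptor that presents TGF-beta to Tgfbr2, was the member with lower means in Lung met most often. The SEAGN mean was 916 in PT and 537 in Lung met, 1.70-fold lower (log2 ratio -0.77), and only 5.41% of SEAGN genes had a lower ratio. In BALB the means were 629 and 518 (log2 ratio -0.28), in Her2 1002 and 987 (log2 ratio -0.02), and in the table deposited under AKR 768 and 519 (log2 ratio -0.57). C3Tag again went the other way, with 1291 in PT and 1686 in Lung met (log2 ratio 0.38).

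Bmpr2, the type II receptor for BMPs and a gene of hereditary pulmonary arterial hypertension, had nearly equal means in both tissues. In BALB they were 2691 and 2749 (log2 ratio 0.03), in SEAGN 2666 and 2719 (log2 ratio 0.03), in C3Tag 8405 and 9579 (log2 ratio 0.19) and in Her2 2965 and 3663 (log2 ratio 0.31). The means were 2859 and 3683 in the table deposited under AKR (log2 ratio 0.37). Its log2 ratios spanned 0.28 over the 4 models, the least of the 10 genes. Per kb it was the highest of the 10 genes in C3Tag PT, at 467.

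Acvrl1, a type I receptor for Bmp9 and Bmp10 found mainly on endothelium, had the higher mean in Lung met in every table. The C3Tag means were 292 in PT and 809 in Lung met, 2.77-fold higher (log2 ratio 1.47). The Her2 means were 567 and 874, 1.54-fold higher (log2 ratio 0.62), and this was the largest log2 ratio among the 9 members in Her2. The BALB means were 222 and 306 (log2 ratio 0.46) and the SEAGN means 257 and 395 (log2 ratio 0.62). In the table deposited under AKR they were 684 and 1483, 2.17-fold higher (log2 ratio 1.11). In each of these tables the ratio exceeded that of at least 91.3% of genes. Acvrl1 overlaps the antisense gene Gm16031, which had no mean in these tables.

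Bmp1, a procollagen C-proteinase that also cleaves the BMP antagonist chordin, had log2 ratios within 0.30 of 0 in all tables. The means were 1171 in PT and 1183 in Lung met of Her2 (log2 ratio 0.01), 2352 and 2892 in C3Tag (log2 ratio 0.30), 297 and 279 in BALB (log2 ratio -0.09), and 294 and 292 in SEAGN (log2 ratio -0.01). The table deposited under AKR had 873 and 779 (log2 ratio -0.17). Of the related proteases and their enhancers, Tll1 was at least 2-fold lower in Lung met in BALB (13.8 in PT and 6.43 in Lung met) and SEAGN (19.0 and 8.82), Pcolce2 was higher in C3Tag (47.1 and 202), and none of 3 passed 2-fold in Her2.

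Markers of other cells differed between the tissues alongside these genes. In a piece of bulk tissue, fewer cells of a type and less RNA per cell cannot be told apart. The 12 endothelial markers, which do not include Acvrl1, had a mean in every table, and their summed means were higher in Lung met by 1.63-fold in Her2 (4686 to 7625), 2.86-fold in C3Tag (3772 to 10794), 1.55-fold in BALB (1230 to 1906), 1.64-fold in SEAGN (1366 to 2236) and 3.52-fold in the table deposited under AKR (3293 to 11592). Of the 12, those at least 2-fold higher numbered 3, 9, 2, 2 and 11 in the same order. Of all genes, 2.38%, 7.42%, 2.26%, 2.86% and 7.31% were at least 2-fold higher, which also stands beside the alveolar counts below. Acvrl1 was 12.1% of that sum in PT and 11.5% in Lung met of Her2, 7.74% and 7.50% in C3Tag, 18.0% and 16.0% in BALB, and 18.8% and 17.7% in SEAGN. Acvrl1 and the endothelial sum thus differed between tissues by nearly the same factor in the 4 models, where the log2 ratio of Acvrl1 lay below that of the sum by at most 0.17. In the table deposited under AKR the share was 20.8% in PT and 12.8% in Lung met. Single endothelial markers were spread widely around Acvrl1. Of the 12, those with a larger log2 ratio than Acvrl1 numbered 6 in Her2, 3 in C3Tag, 8 in BALB, 6 in SEAGN and 11 in the table deposited under AKR. Emcn and Robo4 had log2 ratios of -0.22 and -0.18 in BALB and -0.33 and -0.08 in SEAGN. Vwf had 2.07 in BALB and 1.62 in SEAGN. The endoglin gene Eng, a co-receptor of the endothelium, was 2-fold higher in C3Tag, with 532 in PT and 1155 in Lung met (log2 ratio 1.12), and was 428 and 627 in Her2 (log2 ratio 0.55). In BALB and SEAGN its log2 ratio was 0.16 in both, below those of the endothelial sum, 0.63 and 0.71.

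Most markers of lung epithelium were at least 2-fold higher in Lung met in each table. Of 6 alveolar type 1 markers, those at least 2-fold higher in Lung met numbered 5 in Her2, 6 in C3Tag, 4 in BALB, 4 in SEAGN and 5 in the table deposited under AKR. Their summed means were 57984 in PT and 56572 in Lung met of Her2, 2670 and 12667 in C3Tag, 3596 and 2999 in BALB, 2318 and 5140 in SEAGN, and 14191 and 29469 in the table deposited under AKR, with Aqp5 alone at 57616 in Her2 PT and 3463 in BALB PT. The alveolar type 2 list had 5 of its 8 genes in each table, without Sftpc, Sftpb and Sftpa1, and those higher numbered 4, 5, 4, 4 and 4. Their summed means were 1979 in PT and 40756 in Lung met of C3Tag, 20.6-fold higher, against 1.54-fold in Her2 (8731 to 13413), 2.41-fold in BALB (2382 to 5732), 3.78-fold in SEAGN (2090 to 7899) and 4.46-fold in the table deposited under AKR (5856 to 26106). In the 3 models that list Bmp4, its ratio and this alveolar type 2 fold had the same order, with BALB lowest and C3Tag highest. The sums of the alveolar type 1 and endothelial markers had that order too. The median log2 ratio of the alveolar type 1 list did not, at 3.31 in C3Tag, 3.11 in BALB and 3.81 in SEAGN. Cyp2f2 also had its highest ratio in SEAGN. The table deposited under AKR, with a Bmp4 ratio between those of SEAGN and C3Tag, broke the order of both sums. Its endothelial fold of 3.52 was above the 2.86 of C3Tag, and its alveolar type 1 fold of 2.08 was below the 2.22 of SEAGN. The club cell marker Cyp2f2 was at least 2-fold higher in Lung met in each table, by 2.03-fold in BALB up to 12.4-fold in SEAGN. The part of endothelium and lung epithelium in the ratios of Bmp4, Acvrl1, Tgfb2 and Tgfbr1 was not tested.

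Fibroblast markers went the other way. Of 8 such genes, 7 were at least 2-fold lower in Lung met in Her2, 2 in C3Tag, 6 in BALB, 6 in SEAGN and 7 in the table deposited under AKR, and their sum was lower by 2.44-, 1.21-, 3.17-, 4.11- and 2.73-fold. Of all genes, 1.43%, 1.70%, 2.40%, 3.22% and 1.73% were at least 2-fold lower in that order. The summed means of the fibroblast markers were 25217 in PT and 10354 in Lung met of Her2, 44600 and 36956 in C3Tag, 13750 and 4334 in BALB, and 19048 and 4632 in SEAGN. Pdgfra was the marker of this list with a higher mean in Lung met in every table. The log2 ratios of the fibroblast sum and of Tgfbr3 were -1.28 and -0.02 in Her2 and -0.27 and 0.38 in C3Tag. They were -1.67 and -0.28 in BALB, -2.04 and -0.77 in SEAGN, and -1.45 and -0.57 in the table deposited under AKR. The part of fibroblasts in the Tgfbr3 ratio was not tested. Luminal epithelial markers, several of which lung epithelium also expresses, had sums within 1.10-fold in all tables, with single genes on both sides of 0, such as Krt8 (log2 ratio 0.64) and Epcam (log2 ratio -0.68) in C3Tag. Smooth muscle and pericyte markers had none of their genes past 2-fold, macrophage markers had 1 lower in Her2 and 1 higher each in C3Tag and the table deposited under AKR, and basal markers were higher in Her2, BALB and SEAGN, with 2 of the genes measured in each, and lower in C3Tag, with 1 of 2. In the table deposited under AKR the 3 basal markers had the lower mean in Lung met, and none of them passed 2-fold. The 4 adipocyte markers had no mean in any table.

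**Figure D3:**
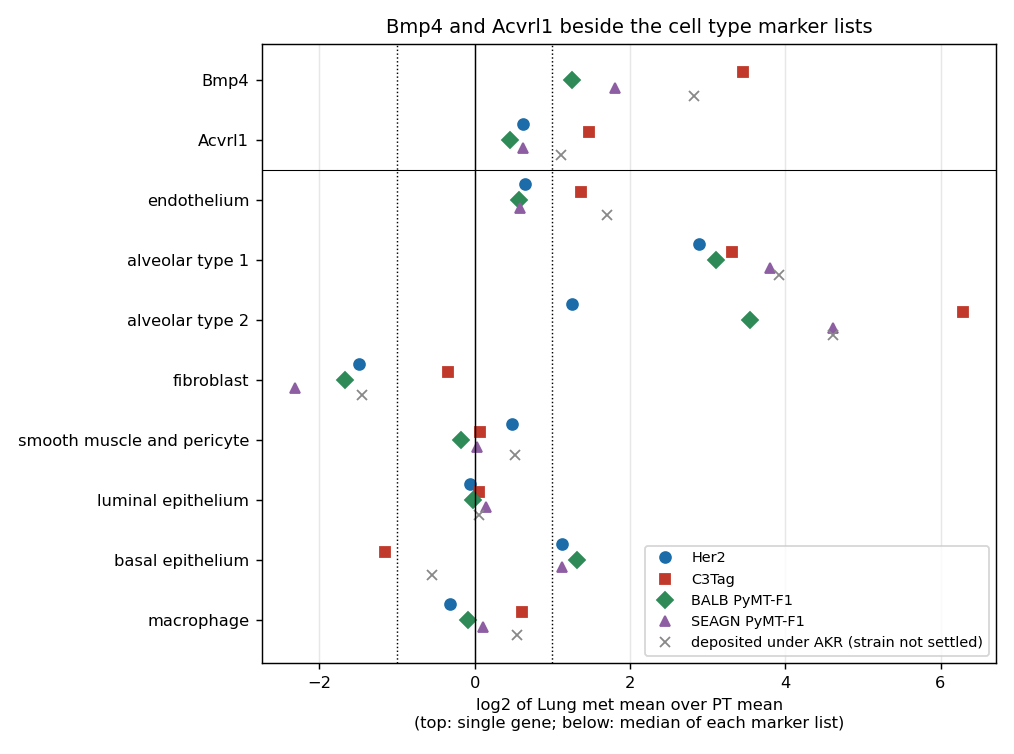
Log2 ratio of Lung met over PT for Bmp4 and Acvrl1 (above the line) and the median log2 ratio of the genes of each cell type marker list (below the line), with one marker per table and dotted lines at 2-fold. Acvrl1 and the endothelial median lie close together in the 4 models, alveolar lists lie far to the right, and the fibroblast list lies to the left of 0.

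Of 89 other genes of the pathways, between 73 and 78 had means in a table. In Her2 5 were at least 2-fold higher and 7 lower, of 74, beside 2.38% and 1.43% of all genes. In C3Tag 15 were higher and 1 lower, of 78, beside 7.42% and 1.70%. In BALB 4 were higher and 7 lower, of 73, beside 2.26% and 2.40%. In SEAGN 6 were higher and 7 lower, of 73, beside 2.86% and 3.22%. In the table deposited under AKR 16 were higher and 6 lower, of 75, beside 7.31% and 1.73%. The same shares stand beside the counts of each list below. The median log2 ratios of these pathway genes were 0.14, 0.22, -0.01, 0.04 and 0.06 in that order, beside medians of all genes between -0.00 and 0.03.

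Of the other ligands, 5 of 11 genes with means were at least 2-fold higher in Lung met in C3Tag, 1 of 8 in Her2, 0 of 6 in BALB and 2 of 9 in SEAGN, and none was 2-fold lower. The gene higher in Her2 was Bmp5, with 21.3 in PT and 197 in Lung met (log2 ratio 3.22). Bmp5 had 26.0 and 1238 in the table deposited under AKR (log2 ratio 5.57) and no mean in C3Tag, BALB or SEAGN. Several ligands of this list had the lower mean in Lung met, among them Bmp7 in Her2 (20.9 in PT and 13.7 in Lung met, log2 ratio -0.61) and Bmp8b in C3Tag (53.2 and 30.4, log2 ratio -0.81). Elsewhere Bmp7 had the higher mean in Lung met, with 126 and 838 in C3Tag (log2 ratio 2.74). Its log2 ratio was 0.93 in BALB and 0.08 in SEAGN. Bmp3, which opposes other BMPs, was listed in 2 models and was higher in both, from 17.9 in PT to 271 in Lung met of C3Tag (log2 ratio 3.92) and from 12.6 to 62.1 in SEAGN (log2 ratio 2.30), and in the table deposited under AKR from 18.3 to 96.1 (log2 ratio 2.39). Gdf15, a stress-induced distant member of the family, was 107 in PT and 281 in Lung met of C3Tag (log2 ratio 1.40) and 4.31 and 16.5 in SEAGN (log2 ratio 1.94), but 11.8 and 10.1 in BALB (log2 ratio -0.24) and 9.09 and 10.1 in Her2 (log2 ratio 0.16). Inhbb, which encodes the activin beta B chain and is the most abundant of this list in PT, had 6112 and 8985 in Her2 (log2 ratio 0.56), 3033 and 3879 in C3Tag (log2 ratio 0.35), 1129 and 1570 in BALB (log2 ratio 0.48), 1674 and 1529 in SEAGN (log2 ratio -0.13) and 3572 and 2977 in the table deposited under AKR (log2 ratio -0.26).

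Of the receptors outside the 10 genes, 1 of 11 genes was at least 2-fold lower in Her2, 1 of 11 higher in C3Tag, 0 of 10 past 2-fold in BALB and 1 of 10 lower in SEAGN. The gene lower in Her2 and SEAGN was Cd109, a co-receptor that dampens TGF-beta signaling, with 157 in PT and 76.6 in Lung met of Her2 (log2 ratio -1.04) and 46.4 and 21.6 in SEAGN (log2 ratio -1.10), and the gene higher in C3Tag was Eng. Bmpr1a, a type I BMP receptor and the most abundant of that list, had 4743 in PT and 5294 in Lung met of Her2 (log2 ratio 0.16), 3444 and 2942 in C3Tag (log2 ratio -0.23), 1512 and 1888 in BALB (log2 ratio 0.32) and 1428 and 1676 in SEAGN (log2 ratio 0.23). Of 12 genes that hold TGF-beta latent or activate it, none passed 2-fold in Her2, BALB or SEAGN. In C3Tag 2 were at least 2-fold higher, Itgb6 (261 in PT and 663 in Lung met) and Ltbp4 (405 and 864), 10 had log2 ratios above 0, and the median was 0.49. Thbs1, an activator of latent TGF-beta, had 20177 and 25166 in Her2 (log2 ratio 0.32), 6882 and 7613 in C3Tag (log2 ratio 0.15), 4760 and 4324 in BALB (log2 ratio -0.14) and 5618 and 3860 in SEAGN (log2 ratio -0.54). The latent TGF-beta binding protein gene Ltbp3 had 4431 and 4966 in Her2 (log2 ratio 0.16), 8727 and 8419 in C3Tag (log2 ratio -0.05), 2819 and 2100 in BALB (log2 ratio -0.42) and 3068 and 1979 in SEAGN (log2 ratio -0.63). Of the SMADs that carry the signal, 0 of 5 passed 2-fold in Her2 and 0 of 6 in C3Tag, and 1 of 6 was higher in BALB and in SEAGN, where the low-level Smad9 went from 8.97 to 18.2 (log2 ratio 1.02) and from 8.15 to 20.9 (log2 ratio 1.36). Smad4, the common partner, had 1666 and 1812 in Her2 (log2 ratio 0.12) and 2508 in both tissues of C3Tag, with log2 ratios of 0.13 in BALB and -0.05 in SEAGN. None of the 8 intracellular inhibitors passed 2-fold in Her2, C3Tag or SEAGN, nor did any of 7 in BALB.

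Of the BMP responsive genes, 2 of 9 were at least 2-fold higher in Her2, 1 of 9 in C3Tag, 1 of 8 in BALB and 1 of 8 in SEAGN, and 4 of 8 in the table deposited under AKR, with none lower. Id1, a direct target of BMP signaling, had 97.7 in PT and 283 in Lung met of Her2 (log2 ratio 1.53), 693 and 1161 in C3Tag (log2 ratio 0.74), 64.5 and 172 in BALB (log2 ratio 1.41) and 60.4 and 119 in SEAGN (log2 ratio 0.98). Atoh8, a transcription factor downstream of Acvrl1 and BMPs in endothelium, had 10.1 and 24.3 in Her2 (log2 ratio 1.27), 23.3 and 186 in C3Tag (log2 ratio 3.00), 6.41 and 12.2 in BALB (log2 ratio 0.93) and 4.25 and 18.0 in SEAGN (log2 ratio 2.09). Id2, the most abundant of the list in PT, had 7980 in PT and 7166 in Lung met of Her2 (log2 ratio -0.16), 2986 and 2586 in C3Tag (log2 ratio -0.21), 1728 and 1834 in BALB (log2 ratio 0.09) and 1368 and 1516 in SEAGN (log2 ratio 0.15). Among the extracellular antagonists, 1 of 10 genes was at least 2-fold higher and 2 lower in Her2, 4 higher and 0 lower of 10 in C3Tag, 2 and 2 of 12 in BALB, and 2 and 2 of 11 in SEAGN. Bmper, an endothelial modulator of BMP, had the higher mean in Lung met in all 4 models and passed 2-fold in 3 of them, with 70.9 in PT and 117 in Lung met of Her2 (log2 ratio 0.72), 73.1 to 226 in C3Tag (log2 ratio 1.63), 7.39 to 23.8 in BALB (log2 ratio 1.69) and 9.16 to 31.5 in SEAGN (log2 ratio 1.78).

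The TGF-beta responsive list was divided. Of its genes 1 of 13 was at least 2-fold higher and 4 lower in Her2, 1 higher and 1 lower of 13 in C3Tag, 0 higher and 4 lower of 12 in BALB, and 0 higher and 3 lower of 12 in SEAGN. Those lower were the collagens and periostin, which the fibroblast list holds as well. Col1a1 had 3457 in PT and 1369 in Lung met of Her2 (log2 ratio -1.34), 5297 and 1416 in BALB (log2 ratio -1.90) and 7343 and 1047 in SEAGN (log2 ratio -2.81). In C3Tag it was 13112 and 8522 (log2 ratio -0.62). Postn had 5183 and 1453 in Her2 (log2 ratio -1.83), 9050 and 4385 in C3Tag (log2 ratio -1.05), 2340 and 768 in BALB (log2 ratio -1.61) and 2837 and 1466 in SEAGN (log2 ratio -0.95). Col1a2 and Col3a1 were lower by more than 2-fold in Her2, BALB and SEAGN but had log2 ratios of -0.06 and 0.01 in C3Tag. Fibronectin, Fn1, went the other way, from 4038 to 8168 in Her2 (log2 ratio 1.02), 50248 to 113230 in C3Tag (log2 ratio 1.17), 2638 to 5225 in BALB (log2 ratio 0.99) and 4454 to 5732 in SEAGN (log2 ratio 0.36). Dcn, which encodes decorin and binds TGF-beta in the matrix, was 854 in PT and 267 in Lung met of Her2 (log2 ratio -1.68), 270 and 160 in BALB (log2 ratio -0.76), 335 and 62.6 in SEAGN (log2 ratio -2.42), and 730 and 1229 in C3Tag (log2 ratio 0.75).

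**Figure D4:**
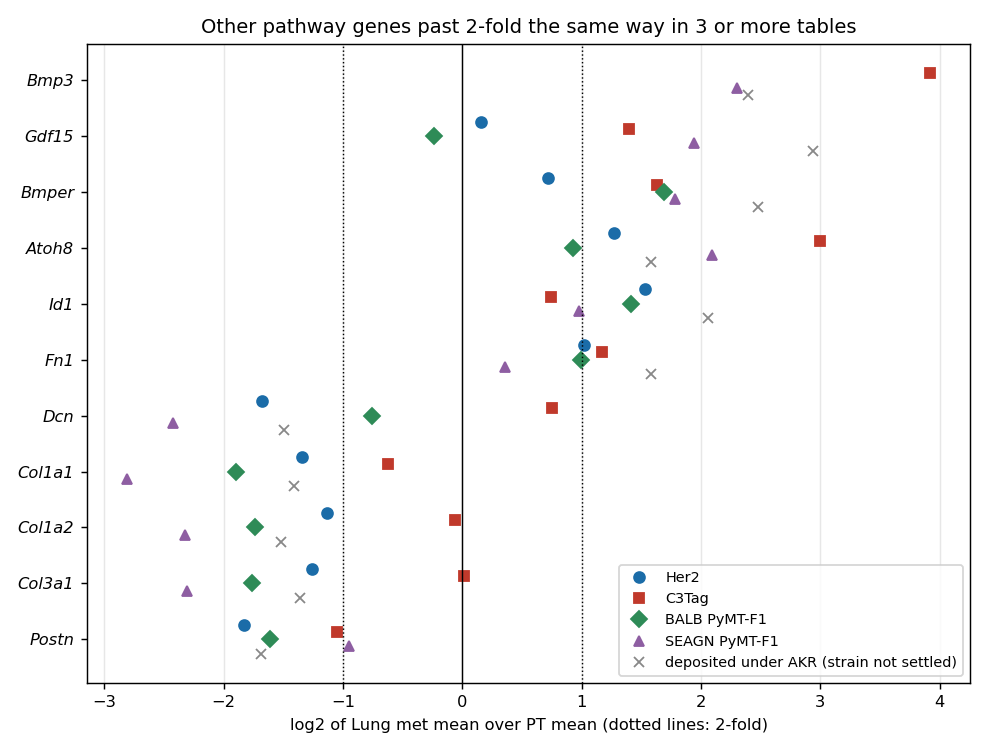
Log2 ratio of Lung met over PT (horizontal axis) for the other pathway genes past 2-fold in the same direction in at least 3 of the 5 tables, with one marker per table. Bmp3, Gdf15, Id1, Fn1 and Dcn reached 3 only with the table deposited under AKR. Bmp3, Gdf15, Bmper, Atoh8, Id1 and Fn1 lie mainly to the right of 0, and Dcn, the 3 collagens and Postn lie mainly to the left, where the C3Tag squares of Col1a2 and Col3a1 are at -0.06 and 0.01.

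Bmp4 was the member past 2-fold in at least 3 tables, and the genes whose log2 ratios were most like it were sought by the Euclidean distance over the 4 tables that list Bmp4, among 12006 genes with a mean of at least 10 in the higher tissue of each table. Dram1, a regulator of autophagy, was closest at a distance of 0.41, with log2 ratios of 3.45 in C3Tag, 1.61 in BALB, 1.62 in SEAGN and 2.78 in the table deposited under AKR. Clic3, a chloride intracellular channel gene, followed at 0.67, with log2 ratios of 3.51, 1.41, 2.39 and 3.10. Clec7a, which encodes the myeloid receptor dectin-1, came next at 0.78, with 3.26, 1.67, 2.42 and 2.72. These distances describe likeness over 4 tables only.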

How the data were processed

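RNA had been sequenced from PT and Lung met tissue, with libraries that the labels give as the Illumina Stranded Total RNA Prep with Ribo-Zero Plus, whereas the methods speak of mRNA libraries. The authors aligned and counted reads in Partek Flow and normalized the counts, then compared the tissues with Gene Specific Analysis (Her2, C3Tag, Myc) or DESeq2 (PyMT-F1). The submitters' processing notes name STAR 2.7.8a, DESeq2 and mm39, while the methods name mm9 and mm10. The deposited means of each tissue are least-squares means that the authors fitted to their normalized counts, and they were handled as a signal without error. The remaining columns hold the authors' own p-values, FDR, ratios and fold changes and were not used, and as the Myc table holds nothing else, Myc was not analysed here. Samples of a tissue and model are different animals per the labels, but no value of a single one entered.

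Genes without a mean above 0 in both tissues were left out, namely 1 in C3Tag, 93 in BALB, 53 in SEAGN and 116 in the table deposited under AKR. Log2 ratios used no pseudocount. Exon lengths and coordinates are from GENCODE M21 on GRCm38, by gene symbol in BALB and SEAGN, whose identifiers are those of the BALB/cJ annotation and where 82.5% of genes had a length. The log2 ratio and the 2-fold call were checked on simulated means with set folds and no noise, which tests the arithmetic only. Python 3.11.15, numpy 2.4.6, pandas 2.3.3 and matplotlib 3.10.9 were used. The members and lists were chosen with earlier results of these data known. Named were all members, those genes of each list past 2-fold in the same direction in at least 3 tables, at most 3 more of a list among its most abundant in PT, and for a member past 2-fold in at least 3 tables the 3 genes nearest in log2 ratio. Eng, Cd109, Itgb6, Ltbp4, Bmp5, Bmp7, Bmp8b, Tll1, Pcolce2, Smad9, Gm22614, Gm25890, the marker genes and genes overlapping a member were named after their values were seen. Alternatives were a fold of 1.5, a pseudocount of 1, centring, equal totals and a mean of at least 10.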

Additional observations from a re-analysis of the deposited data

How the results depend on the processing

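Centring on the median of all genes and a pseudocount of 1 left all 49 log2 ratios of the members within 1.5-fold of the reported value. Centring could hardly move them, since its largest shift was -0.03, in BALB. Leaving out genes with a mean under 10 in both tissues could not change them. The least abundant member, Bmp4 in BALB, had a mean of 35.6 in Lung met. Scaling both tissues to the same total moved the 10 C3Tag ratios, their median to 1.39, the members at least 2-fold higher in C3Tag to 8 (beside 30.3% of all genes), and the other pathway genes in C3Tag to 41 higher and 0 lower. It also left 3 pathway genes higher in Her2. It turned the sign of 1 member ratio in Her2, 1 in C3Tag, 2 in BALB, 1 in SEAGN and 1 in the table deposited under AKR. Each of these was close to 0 as deposited, among them Tgfb3 in C3Tag, which went from -0.08 to 0.72. Without Gm22614 and Gm25890, an alternative chosen after seeing the data, equal totals moved the C3Tag median of all genes by -0.03 instead of 0.80, no member ratio by 1.5-fold, and again left 3 pathway genes higher in Her2. A fold of 1.5 counted 1 member as higher in Her2 (Acvrl1), beside 5.42% of all genes, and 5 in C3Tag, beside 14.0%. It counted 2 as higher and 1 as lower in SEAGN, beside 7.11% and 8.32%. Among the pathway genes it counted 11 as higher in Her2, 23 higher and 6 lower in C3Tag, 10 and 13 in BALB and 11 and 14 in SEAGN. Of all genes, 5.61% were lower at this fold in C3Tag, and 6.20% were higher and 6.76% lower in BALB. No paired analysis was possible because the tables hold group means and no values of single samples, although PT and Lung met were taken from the same animals. For the same reason no replicate could be left out, and depth and spread between animals remain unknown.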
